A study of Mus musculus with 2 samples.

Results

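The 29 interferon-induced genes described here were matched by symbol among the 48709 gene rows of both libraries. They are the ubiquitin-like protein Isg15 and its protease Usp18; the RNA-binding proteins Ifit1, Ifit2, Ifit3 and Ifit3b; the transcription factors Irf7 and Stat2; the dynamin-like GTPases Mx1 and Mx2; the oligoadenylate synthetase family members Oasl2 and Oas1a; the antiviral effectors Rsad2, Ifi44, Rtp4, Bst2, Ly6e, Ifi27l2a, Xaf1 and Zbp1; the DNA-sensor family members Ifi204 and Ifi203; the immunity-related GTPases Ifi47, Iigp1, Igtp and Irgm1; and the guanylate-binding proteins Gbp2, Gbp3 and Gbp7. All 29 rows were found, 26 held at least 1 transcript count in the cells kept, and 3 (Ifi203, Ifi47 and Igtp) held none. Counts are unique molecular identifiers (UMIs), each standing for 1 captured transcript, and levels are CPM, counts per 1000000 UMIs of the same cells, which are relative to everything else counted there.

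Cells came from cochleae of C57BL/6J mice of the genotype CX3CR1+/GFP Thy1+/YFP, males and females pooled, in which GFP stands in for one copy of the fractalkine receptor gene. One library was made from cochleae that had received an electrode array and the other from cochleae without one, which the series' design text calls contralateral; tissue was taken 33 days after implantation. The extraction protocol attached to the samples describes the microdissection of another preparation, from younger and older mice with no implant mentioned, and the design text was followed here. In both, cells were pulled out with magnetic beads against CD11b, an integrin of myeloid cells, before droplet capture of the 3' ends of transcripts. How many animals were pooled is not given in the sources used here. Each condition is 1 library, so no difference between them has a replicate check and no test was made; the intervals given are exact 95% intervals that cover counting error only.

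After barcodes with fewer than 200 genes or more than 10% mitochondrial UMIs and predicted doublets were left out, 3065 cells of the implanted and 3411 cells of the non-implanted library remained, with medians of 4237 and 4150 UMIs a cell. The leukocyte gene Ptprc was seen in 90.0% and 93.1% of them. Itgam, which encodes CD11b, has 2 rows in the files, of which one held no UMI in either library's cells and the other 133 and 161 UMIs. The libraries shared 6 barcodes. Clusters made without the 29 genes and without 142 further interferon pathway genes were named from fixed markers: granulocyte precursor-like (867 implanted and 1079 non-implanted cells), neutrophil-like (1455 and 1707), monocyte-like (314 and 271) and macrophage-like (258 and 218), with small erythroid-like (78 and 41), B cell-like (40 and 32) and osteoclast-like (11 and 31) classes and 1 mixed cluster without a name (42 and 32). Macrophage-like cells in the libraries did not come from the same clusters throughout: cluster 8, led by MHC class II genes, held 112 and 151 of them, and cluster 19, led by Mmp12, held 64 and 3.

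Interferons are secreted proteins that bind receptors on nearly every cell. Type I interferons act through the receptor chains IFNAR1 and IFNAR2 and a complex that holds STAT2 and IRF9 and binds the interferon-stimulated response element; interferon gamma has its own receptor and acts through the gamma-activated site. The genes so induced limit viruses and intracellular microbes, and several restrain the pathway itself.

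The response element can be seen in the letters before the genes' start sites. A RefSeq table of promoters (GRCm38.p6, 250 bases before to 50 after the start) held 20 of the 29 genes. The element's core, searched as GAAANNGAAA on both strands with overlapping matches allowed, was present in 14 of these 20 windows (70%) and in 3.99% of the 27025 windows of the table. The gamma-activated site, searched as TTCNNNGAA, was present in 5 of 20 (25%) and in 9.55% of all windows. By role, the core stood in 6 of 10 windows of the genes used for the cell score below. It stood in 5 of 6 windows of the immunity-related GTPases and guanylate-binding proteins and in 3 of 4 others. The stretches below, 5′ to 3′ on each gene's strand with the matches to the core (or its reverse complement TTTCNNTTTC) in capitals, are shown because these genes carry the comparisons that follow: Isg15, Rsad2 and Ifit1 are core genes described in single cells, Ifit3 and Ifit3b are copies whose counts cannot be fully separated, Bst2 and Gbp3 are the monocyte and macrophage pattern, Gbp7 differed between libraries, and Igtp had no UMI.
Isg15 (chr4:156200859-156200912, minus strand): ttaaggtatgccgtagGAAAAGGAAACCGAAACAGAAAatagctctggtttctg
Rsad2 (chr12:26456547-26456588, minus strand): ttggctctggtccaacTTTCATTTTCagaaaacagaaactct
Ifit1 (chr19:34640769-34640829, plus strand): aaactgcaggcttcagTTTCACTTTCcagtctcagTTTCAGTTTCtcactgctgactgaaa
Ifit3 (chr19:34583357-34583432, plus strand): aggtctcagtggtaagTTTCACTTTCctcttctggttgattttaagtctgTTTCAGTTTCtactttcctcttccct
Ifit3b (chr19:34607753-34607828, plus strand): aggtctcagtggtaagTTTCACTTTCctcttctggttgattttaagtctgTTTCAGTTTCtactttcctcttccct
Bst2 (chr8:71537571-71537618, minus strand): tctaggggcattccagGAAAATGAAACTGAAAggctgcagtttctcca
Gbp3 (chr3:142559983-142560030, plus strand): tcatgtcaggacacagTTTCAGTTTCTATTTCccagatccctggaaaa
Gbp7 (chr3:142530267-142530308, plus strand): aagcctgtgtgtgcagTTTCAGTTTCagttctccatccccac
Igtp (chr11:58199506-58199547, plus strand): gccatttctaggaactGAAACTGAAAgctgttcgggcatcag
Isg15 held 3 overlapping matches, from 78 to 57 bases before its start, and Ifit1 held 2 separate ones. The Ifit3 and Ifit3b stretches were the same over all 76 bases. No match stood in the windows of Ifi44, Oasl2, Irf7, Ifi47, Xaf1 or Ifit2. A match is a description of these letters and not a binding site.

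Along the granulocyte lineage most of the measured genes had a higher CPM in mature cells than in precursors. The 13 genes used as a core score (Isg15, Usp18, Ifit1, Ifit2, Ifit3, Ifit3b, Irf7, Mx1, Mx2, Oasl2, Oas1a, Rsad2 and Ifi44) summed to 30.4 CPM in granulocyte precursor-like and 344 CPM in neutrophil-like cells of the implanted library, and to 33.7 and 326 CPM in the non-implanted one. Of the 29 genes, 20 had at least 20 UMIs in the pair of classes in each library. Among those, 13 were at least 2-fold higher in neutrophil-like cells in both libraries, after 5 CPM was added to each level, and none was 2-fold lower; of all genes measured so, 10.5% were higher and 14.7% lower. A gene that is measured only where it is high had to differ, so the count is a description. Precursor-like cells were also deeper, with medians of 8194 and 7790 UMIs against 2891 and 2821. A higher CPM thus need not mean more transcripts in a cell. Isg15 was seen in 6.23% and 6.58% of precursor-like and 19.6% and 17.8% of neutrophil-like cells. For Irf7 the shares were 7.96% and 8.62% against 9.42% and 7.32%. The 13 were Isg15, Ifit1, Ifit3, Irf7, Oasl2, Rsad2, Rtp4, Ly6e, Ifi27l2a, Zbp1, Ifi204, Gbp2 and Gbp7. The 7 that passed in neither direction were Usp18, Ifit2, Stat2, Oas1a, Bst2, Xaf1 and Irgm1. Some of the 7 had low levels, so that the added 5 CPM kept them from passing. With nothing added, the ratio of neutrophil-like to precursor-like level was 14.3 (4.33 to 74.0) and 5.22 (2.76 to 10.4) for Usp18. It was 5.35 and 3.84 for Oas1a and 4.46 and 2.88 for Xaf1.

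Cluster by cluster, the summed core level began low in the cells led by the primary granule genes Elane and Prtn3 (cluster 13, 24.7 CPM implanted and 19.5 CPM non-implanted) and in cycling precursors (cluster 4, 24.7 and 20.7 CPM). It was 39.1 and 49.2 CPM in the last precursor-like cluster, led by Ly6g and Ltf (cluster 1). Among neutrophil-like clusters it was 62.5 and 106 CPM in cluster 5 and 203 and 188 CPM in cluster 7, led by Retnlg and Mmp8. The highest neutrophil-like values were in cluster 3, led by Il1b (647 and 639 CPM), and cluster 12, led by Ccrl2, Acod1 and Cxcl2 (611 and 654 CPM). In each library the 4 precursor-like clusters lay below all 6 neutrophil-like clusters. Cluster 6 was the neutrophil-like cluster with the widest gap in favour of the implanted library, 468 against 288 CPM.

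**Figure D1:**
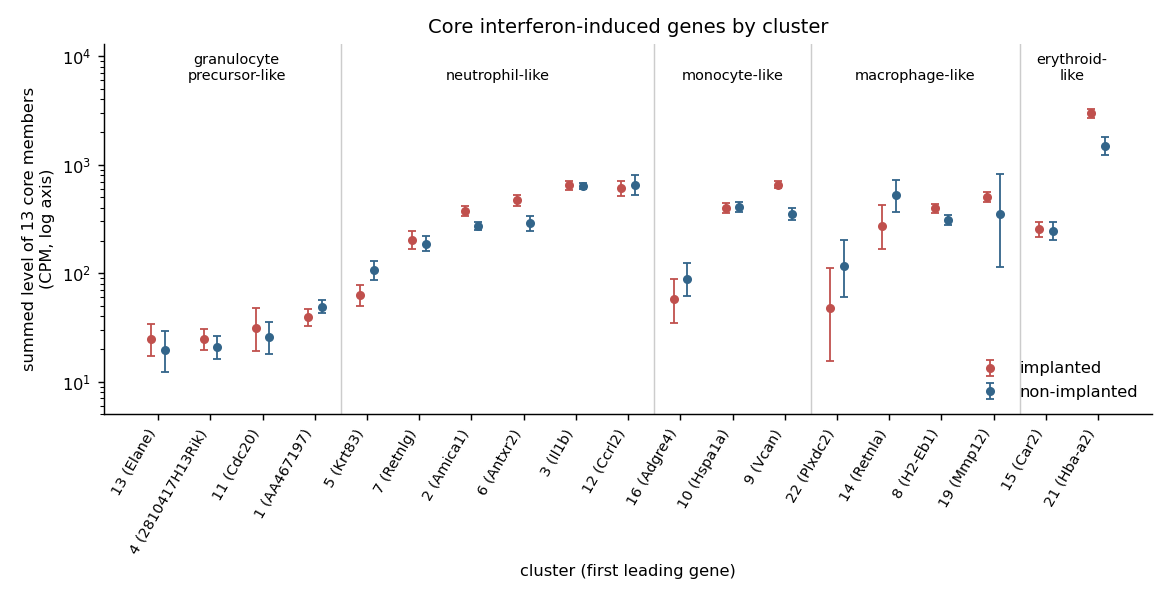
Summed level of the 13 core genes in CPM (log axis) by cluster and library; points are 1 library each and bars are exact 95% counting intervals. The 4 precursor-like clusters lie below 50 CPM, neutrophil-like clusters reach 654 CPM, and erythroid-like cluster 21 stands highest at 2995 and 1491 CPM.

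Isg15 was the most counted of the 13 genes in neutrophil-like cells. It stood at 6.96 CPM (57 UMIs) in precursor-like and 139 CPM (639 UMIs) in neutrophil-like cells of the implanted library, and at 8.57 CPM (88 UMIs) and 122 CPM (651 UMIs) in the non-implanted one. The ratio of neutrophil-like to precursor-like level was 20.0 (15.2 to 26.7) and 14.2 (11.4 to 18). Rsad2, which encodes the antiviral enzyme viperin, was at 3.18 and 3.02 CPM in precursor-like cells and at 67.3 and 71.1 CPM in neutrophil-like cells. Its ratios, 21.2 (14.2 to 33.0) and 23.6 (16.3 to 35.2), were like those of Isg15. Oasl2 went from 2.44 and 2.34 to 61.6 and 66.8 CPM, and Rtp4, a chaperone of membrane receptors, from 0.977 and 2.82 to 61.2 and 62.0 CPM. For all 4 genes the libraries lay closer to each other than precursors to mature cells.

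The rest of the set divided by how neutrophil-like cells used it. Ifi27l2a, a small membrane protein, was at 242 and 336 CPM in neutrophil-like against 13.3 and 20.1 CPM in precursor-like cells, and Ly6e, a membrane-anchored surface protein, at 102 and 120 against 24.8 and 17.5 CPM. Ifi204 stood at 40.3 and 39.7 CPM in neutrophil-like cells, with 8 UMIs in precursor-like cells of each library. Irf7, the factor that amplifies type I interferon production, was 35.7 and 28.4 CPM against 8.67 and 10.3 CPM. Stat2 and Irgm1 showed no such step: Stat2 was at 9.77 and 8.18 CPM in precursor-like and 6.97 and 10.5 CPM in neutrophil-like cells. Ifit2 went the other way, with 57 and 55 UMIs (6.96 and 5.36 CPM) in precursor-like cells and 9 and 14 UMIs (1.96 and 2.62 CPM) in neutrophil-like cells. Its close relatives Ifit1 (1 and 8 UMIs in precursor-like, 74 and 59 in neutrophil-like cells) and Ifit3 (2 and 5, then 43 and 37) were rare in precursor-like and more frequent in mature cells.

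Another group of genes was rarely counted in neutrophil-like cells although Isg15 and Rsad2 were abundant there. Mx1 had 2 UMIs in 1455 implanted and none in 1707 non-implanted neutrophil-like cells, against 74 UMIs (34.0 CPM) and 61 UMIs (31.8 CPM) in monocyte-like cells. At the depth of the non-implanted neutrophil-like cells, a level of 0.561 CPM would give 3 UMIs. Gbp3 had 2 and 4 UMIs in neutrophil-like and 57 and 54 UMIs in monocyte-like cells, which is a ratio of levels of 60.1 (15.9 to 508) and 37.6 (13.9 to 143). Mx2 gave 2 and 4 UMIs against 28 and 22, and Ifi44 none in neutrophil-like cells of either library against 6 and 1 in monocyte-like and 8 and 4 in macrophage-like cells. Iigp1 had no UMI in neutrophil-like cells and 34 and 26 in macrophage-like cells, where 1 cell held 61.8% and 38.5% of them.

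Monocyte-like cells had the highest levels of Ly6e (1308 and 1227 CPM) and Ifi27l2a (1306 and 1187 CPM) among the 4 large classes. Ly6e was 12.9 times (11.7 to 14.2) and 10.2 times (9.38 to 11.2) its neutrophil-like level. Zbp1, a sensor of Z-form nucleic acid, was at 79.0 and 80.9 CPM there, against 8.93 and 12 CPM in neutrophil-like and 29.1 and 36.6 CPM in macrophage-like cells. Of the 23 genes measured in both libraries for monocyte-like against neutrophil-like cells, 14 were at least 2-fold higher in both (60.9%, beside 37.8% of all genes measured) and 1, Rsad2, was at least 2-fold lower (4.35%, beside 5.72%). Rsad2 stood at 25.7 and 25.6 CPM in monocyte-like cells; with the interferon genes kept in the clustering it did not reach 2-fold lower. Among the higher ones, Oas1a, which makes the oligoadenylates that activate RNase L, was at 34.0 and 21.4 CPM against 4.57 and 5.24 CPM in neutrophil-like cells. Xaf1 was at 46.4 and 39.6 CPM against 5.44 and 5.61 CPM, and Stat2 at 44.6 and 55.8 CPM against 6.97 and 10.5 CPM. The 8 that passed in neither direction were Isg15, Usp18, Ifit1, Ifit3, Oasl2, Rtp4, Gbp2 and Gbp7. Isg15 was lower in monocyte-like cells, with ratios to the neutrophil-like level of 0.522 in each library. Rtp4 had ratios of 0.878 and 0.640, and Oasl2 was split at 1.31 and 0.609. Usp18 was at 21.6 and 12.5 CPM against 5.23 and 7.11 CPM, and Gbp7 at 23.4 and 23.0 CPM against 15.2 and 16.7 CPM.

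Of 24 members measured for monocyte-like against macrophage-like cells, 21 passed 2-fold in neither direction in both libraries. Zbp1 was 2-fold higher in monocyte-like cells (4.17%, beside 2.78% of all genes), and Bst2 and Iigp1 were 2-fold lower (8.33%, beside 5.71%). Neither share was smaller than that of all genes. Some of the 21 passed in a single library. For the implanted library these were Ifit3, Mx1, Ly6e and Xaf1 (log2 differences 1.03, 1.02, 1.11 and 1.04) and Rsad2 (-1.36). Their non-implanted values were 0.357, 0.427, 0.408, 0.239 and 0.158. Mx2 passed only without an implant (0.593 implanted, 1.05 non-implanted). Bst2, the surface protein tetherin that holds budding virus to the cell, was at 326 and 307 CPM in macrophage-like, 137 and 129 CPM in monocyte-like and 8.49 and 9.36 CPM in neutrophil-like cells. The highest macrophage-like Bst2 was in cluster 14, led by Retnla and C1q genes (641 and 818 CPM). Its cells were shallow, with medians of 755 and 821.5 UMIs and totals of 73282 and 67204 UMIs. Against neutrophil-like cells, 14 of 23 genes were 2-fold higher in macrophage-like cells in both libraries (60.9%, beside 36.2% of all genes) and none was lower (6.59% of all genes). That count was 8 with the interferon genes kept in the clustering.

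**Figure D2:**
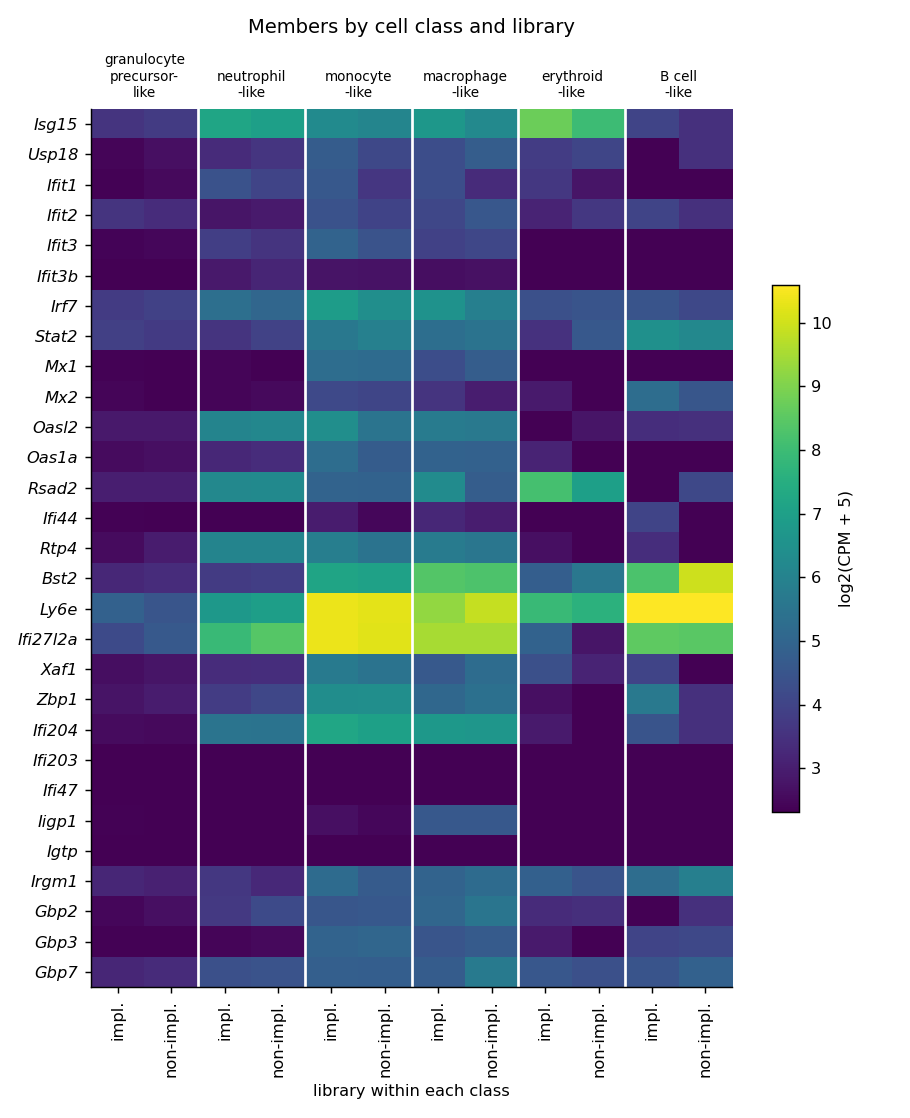
Level of each of the 29 genes, as log2(CPM + 5), in 6 cell classes with the implanted and non-implanted library side by side. Levels are to be read along a row. Isg15, Rsad2, Oasl2 and Rtp4 are bright in neutrophil-like, monocyte-like and macrophage-like cells, Mx1 and Gbp3 in the last 2 of these but not in neutrophil-like cells, and Isg15 and Rsad2 stand out in erythroid-like cells.

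B cell-like cells had another profile, from 40 and 32 cells. Ly6e was at 1534 and 1543 CPM, Stat2 at 84.9 and 67.1 CPM and Bst2 at 300.1 and 988 CPM. Bst2 differed between the libraries there (ratio 0.304, 0.218 to 0.417), with 6 and 10 cells holding a UMI and 1 implanted cell holding 50.9% of the UMIs. Isg15 had 2 and 1 UMIs and Ifit1 and Ifit3 none, so the profile of the core genes was low.

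Erythroid-like cells, a lineage not known for CD11b, held the highest Isg15 and Rsad2 levels of any class. Over both erythroid-like clusters, Isg15 had 337 UMIs (423 CPM) in the implanted and 130 UMIs (248 CPM) in the non-implanted library, and Rsad2 had 224 UMIs (281 CPM) and 64 UMIs (122 CPM). Most came from cluster 21, of 22 and 11 cells, in which globin transcripts made up a median of 56.7% and 79.4% of a cell's UMIs. Isg15 was at 1759 and 1004 CPM in that cluster, with a UMI in 14 of 22 and 8 of 11 cells. Rsad2 was at 1166 and 487 CPM, in 19 of 22 and 8 of 11 cells. In the earlier erythroid-like cluster 15, led by Car2 and Sox6, the levels were 130 and 132 CPM for Isg15 and 87.3 and 66.0 CPM for Rsad2.

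The rest of the core was counted less than these 2 transcripts: the other 11 core genes together stood at 35.2 and 46.2 CPM in cluster 15. In cluster 21, of 143246 and 69756 UMIs, they had 10 UMIs (69.8 CPM) and 0 UMIs. Beside them stood 252 and 70 UMIs of Isg15 and 167 and 34 of Rsad2. Oasl2 had no UMI there in either library, while in neutrophil-like cells Oasl2 had 283 and 357 UMIs beside 309 and 380 of Rsad2. Without the cell that held most of each gene, Isg15 in cluster 21 was 1278 CPM in the implanted and 141 CPM in the non-implanted library, and Rsad2 was 933 and 291 CPM. The non-implanted Isg15 value thus rested mostly on 1 cell of 11, and the difference between the libraries in these cells has no replicate check.

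Globin RNA was also seen outside erythroid-like cells, with 2025 Hbb-bs UMIs in implanted and 161 in non-implanted neutrophil-like cells and 1899 and 92 in monocyte-like cells. At the ratio of Isg15 to Hbb-bs counts found in erythroid-like cells, those counts would go with 7.78 and 0.312 Isg15 UMIs in neutrophil-like cells, of 639 and 651 measured, and with 7.30 and 0.178 in monocyte-like cells, of 158 and 122 measured. For Rsad2 in monocyte-like cells the figures were 4.85 and 0.0879 UMIs of 56 and 49.

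**Figure D3:**
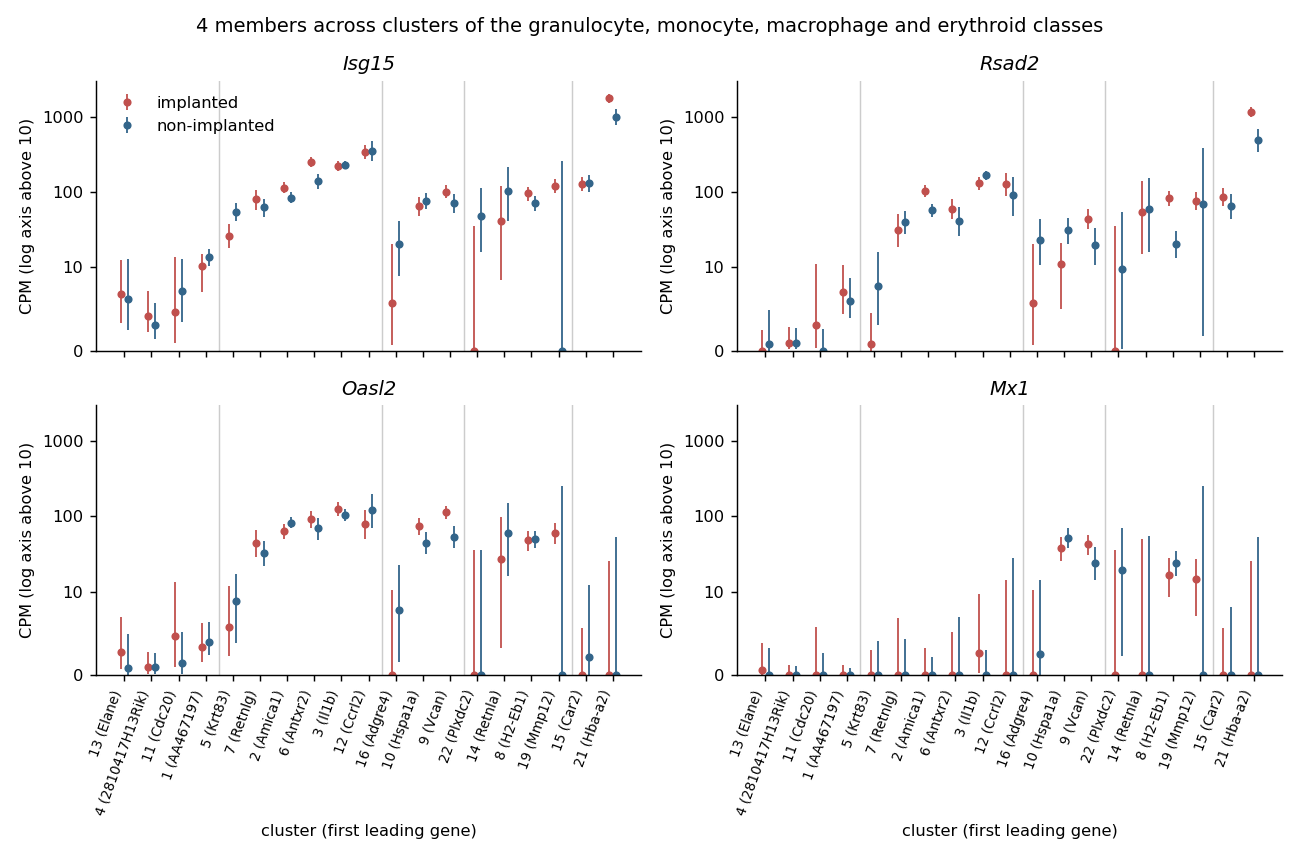
Isg15, Rsad2, Oasl2 and Mx1 in CPM (linear to 10, log axis above) by cluster in both libraries, with exact 95% counting intervals and lines between classes. Isg15 and Rsad2 reach their highest values in erythroid-like cluster 21 (1759 and 1166 CPM in the implanted library), where Oasl2 and Mx1 have no UMI.

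To compare shares of cells, each cell was thinned at random to 1000 UMIs, and 103 and 69 shallower cells were left out. Of these, 52 and 35 were macrophage-like. Isg15 was then seen in 155 of 1426 implanted (10.9%) and 164 of 1689 non-implanted (9.71%) neutrophil-like cells. Before thinning the counts were 285 of 1455 and 303 of 1707. The class meant to lack the gene and so to measure free RNA was erythroid-like, but 18 of 73 (24.7%) and 5 of 40 (12.5%) of those cells held Isg15, so precursor-like cells were used in its place after this was seen: 9 of 859 (1.05%) and 7 of 1071 (0.654%). Rsad2 was seen in 5.40% and 5.33% of neutrophil-like and 0.233% and 0.467% of precursor-like cells. Precursor-like cells were deeper before thinning, with medians of 8245 and 7856 UMIs against 2913 and 2844 in neutrophil-like cells.

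The core genes tended to be found in the same cells. Of thinned neutrophil-like cells with an Ifit1 UMI, 12 of 16 implanted (75.0%) and 13 of 17 non-implanted (76.5%) held another core gene, against 20.2% and 19.5% of cells without Ifit1. For Rsad2 the shares were 48.1% and 55.6% with it and 16.6% and 15.8% without. Isg15, the most widely seen of them, gave 27.7% and 35.4% with it and 11.5% and 11.7% without. Irf7 gave 39.5% and 37.0% against 18.9% and 18.1%.

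Cells with at least 3 of the 13 core genes after thinning were called high-scoring. They made up 33 of 2962 implanted cells (1.11%, 0.768 to 1.56, Clopper-Pearson) and 34 of 3342 non-implanted cells (1.02%, 0.706 to 1.42). The cut is a range on a score and not a cell type: 15 and 20 of these cells held exactly 3 core genes, 18 and 14 more than 3, and 71 and 73 further cells held 2. At 1000 UMIs a cell, 2474 and 2838 cells held none of the 13, so a low score does not show that a cell lacked these transcripts. With a cut at 2 core genes the shares were 3.51% and 3.20%, with a cut at 4 they were 0.608% and 0.419%, and without thinning the cut at 3 gave 6.82% and 5.10%.

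Most high-scoring cells were neutrophil-like: 19 of 1426 implanted (1.33%, 0.804 to 2.07) and 26 of 1689 non-implanted (1.54%, 1.01 to 2.25). They lay mainly in cluster 3 (9 of 298 and 14 of 450) and cluster 2, led by Amica1, Stfa2l1 and Ccl6 (6 of 393 and 7 of 604). Precursor-like cells gave 0 of 859, which allows a share of up to 0.349% taken as 3 counts of the total (Clopper-Pearson upper bound 0.429%), and 1 of 1071. Monocyte-like cells gave 10 of 309 implanted (3.24%, 1.56 to 5.87) and 3 of 268 non-implanted (1.12%, 0.231 to 3.24). In these the implanted share was the higher one, the intervals overlapped, and 8 of the 10 implanted cells lay in cluster 9, led by Vcan (8 of 148 against 2 of 105 non-implanted cells). Macrophage-like cells gave 3 of 206 and 3 of 183, and no erythroid-like cell passed (0 of 73 and 0 of 40), although 9 and 2 of them held 2 core genes.

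The 16 genes outside the score show what else those neutrophil-like cells carried. Rtp4 was at 607 CPM in the 19 high-scoring and 56.3 CPM in the 1407 other implanted cells, and at 461 CPM in the 26 high-scoring and 56.3 CPM in the 1663 other non-implanted cells. Ly6e was at 961 against 93.9 CPM and at 474 against 114 CPM. Stat2 was at 152 against 5.52 CPM (6 UMIs in the high-scoring cells) and at 65.8 against 9.71 CPM (5 UMIs). Each of these was higher in high-scoring cells in both libraries, with ratios for Rtp4 of 10.8 (6.78 to 16.4) and 8.18 (5.59 to 11.6). Ifi27l2a was at 835 against 236 CPM and 1172 against 324 CPM, with ratios of 3.53 (2.42 to 4.99) and 3.62 (2.89 to 4.48).

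The 7 immunity-related GTPases and guanylate-binding proteins of the set had few counts in these cells. Of them, Irgm1 and Gbp2 were the ones higher in high-scoring cells of both libraries beyond counting error. Irgm1 had 3 and 4 UMIs in high-scoring neutrophil-like cells (75.9 and 52.7 CPM) against 7.07 and 4.00 CPM in the others. Gbp2 had 3 and 6 UMIs (75.9 and 79.0 CPM) against 7.07 and 12.4 CPM. Gbp7 had 11 UMIs in implanted cells (278 against 12.6 CPM) and 4 in non-implanted cells (52.7 against 16.2 CPM), where the interval of the ratio reached from 0.867 to 8.65. Gbp3 had 1 and 0 UMIs in the high-scoring cells, and Ifi47, Iigp1 and Igtp had none in high-scoring or other neutrophil-like cells. Mx1 and Ifi44, though part of the score, had no UMI in any high-scoring neutrophil-like cell of either library.

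**Figure D4:**
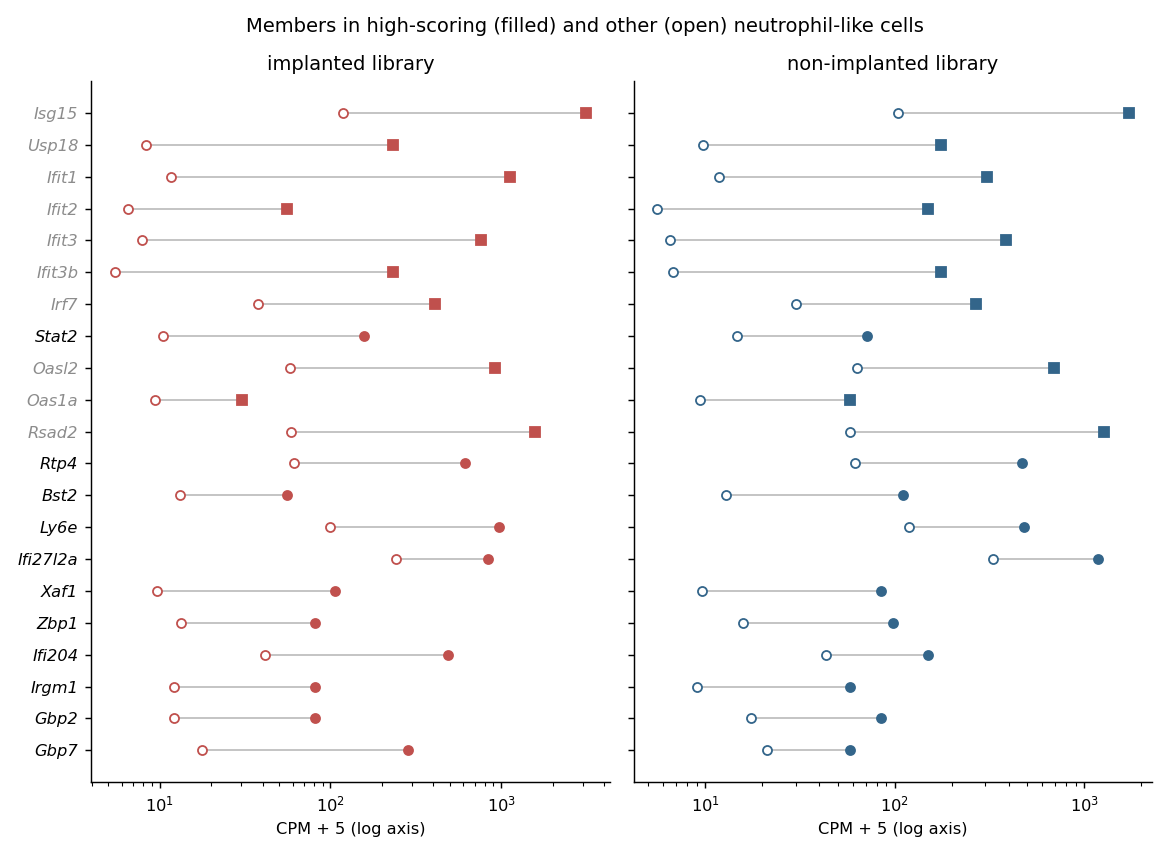
Levels (CPM + 5, log axis) of members with at least 20 UMIs in high-scoring (filled) and other (open) neutrophil-like cells of each library; squares and grey names are the core genes that chose the cells, circles and black names are the members that did not. Each of the circles lies to the right in the high-scoring cells, Rtp4 at 607 and 461 CPM against 56.3 CPM.

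Across all genes outside the score, 165 of 7111 measured (2.32%) were at least 2-fold higher in high-scoring than in other neutrophil-like cells in both libraries. Of the 83 such genes on the lists of members and pathway genes, 40 were (48.2%). The cells were picked by genes of the same pathway, and the lists were chosen with earlier results of these data known. A high share was thus largely set by the choice of cells and is a description. The 15 genes with the largest smaller-of-both-libraries difference were Oasl1, AI607873, Gm13822, Slfn5, Xaf1, Parp14, Slfn8, Rtp4, Irgm2, Ifi35, Isg20, Irgm1, Cmpk2, Slfn4 and Zbp1, of which 4 are members and 9 pathway genes. Oasl1, which limits translation of Irf7, led them with log2 differences of 4.61 and 3.56 (784 against 27.4 CPM and 448 against 33.5 CPM). Slfn4, a Schlafen gene of myeloid cells, was the most counted, with 93 and 116 UMIs in the high-scoring cells (2353 against 261 CPM and 1528 against 236 CPM). AI607873 rested on 4 and 7 UMIs.

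High-scoring neutrophil-like cells were shallower than the others, with medians of 2128 and 2430.5 against 2933 and 2851 UMIs. Summed over the high-scoring cells of each library, all 12 neutrophil markers had a UMI. The summed level of these markers had medians of 1398 and 1776 per 10000 UMIs against 2446 and 2436 in the other cells. Macrophage markers had medians of 3.56 and 2.68 in high-scoring cells against 2.99 and 1.92 in the others. At these depths such medians are less than a single UMI a cell, so no direction is read from them. Monocyte markers had medians of 7.55 and 5.81 against 7.25 and 6, and granulocyte precursor markers 14.3 and 17.3 against 18.9 and 16.7. Marker lists of plasmacytoid dendritic, dendritic, T or NK, B and erythroid cells had medians of 0. The part of the lower neutrophil marker sum, or of the other lists, in the differences was not tested.

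Turning to the libraries, the 13 core genes summed to 237 CPM (230 to 244) over all implanted cells and 170 CPM (164 to 175) over all non-implanted cells. A sum over all cells moves with the mix of classes, so classes were compared one at a time, calling a gene higher or lower at 1.5-fold after 5 CPM was added, where the libraries' summed count reached 20 UMIs. Over all cells 26 of 29 genes were measured, and 1 was higher in the implanted library (3.85%, beside 2.56% of all genes). None was lower (0.159% of all genes). The higher one was Ifit1, at 11.4 CPM (210 UMIs) against 4.56 CPM (93 UMIs), a ratio of 2.50 (1.95 to 3.22). The unnamed mixed cluster held 62 and 4 of these UMIs, 66.1% of its implanted ones in 1 cell. Over all implanted cells 1 cell held 19.5%, and without high-scoring cells the log2 difference was 0.31 and no longer passed.

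Neutrophil-like and precursor-like cells showed no member past 1.5-fold after 5 CPM was added. With 1 CPM added, 1 member was higher and 2 were lower in neutrophil-like cells, and 1 was lower in precursor-like cells. Of 21 members measured in neutrophil-like cells the median log2 ratio was -0.10, and all genes gave 1.79% higher and 0.548% lower. Isg15 stood at 139 and 122 CPM and Rsad2 at 67.3 and 71.1 CPM. The lowest ratios on the scale used for calls were those of Gbp2 (7.84 against 13.3 CPM, ratio 0.590, 0.384 to 0.893) and Ifi27l2a (242 against 336 CPM, ratio 0.719, 0.667 to 0.776). Within the neutrophil-like class, the core sum was 375 against 273 CPM in cluster 2 and 468 against 288 CPM in cluster 6. It was 62.5 against 106 CPM in cluster 5, and closer in clusters 3 (647 and 639 CPM), 7 (203 and 188 CPM) and 12 (611 and 654 CPM). The mix also differed: cluster 5 held 261 and 181 cells and cluster 3 held 308 and 457. The part of this mix in the class values was not tested. Of 15 measured in precursor-like cells the median was -0.13, beside 0.873% higher and 0.143% lower among all genes. Rtp4 had 8 UMIs (0.977 CPM) against 29 UMIs (2.82 CPM) there, a ratio of 0.346 (0.137 to 0.776) with nothing added.

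In monocyte-like cells 3 of 23 measured members were higher in the implanted library (13%, beside 2.66% of all genes) and none was lower (2.38% of all genes). The count of higher members depended on the setting: it was 6 with 1 CPM added, 1 with 20 CPM added, 6 with the highest cell left out and 7 with each library clustered alone, and without high-scoring cells 1 was higher and 1 lower. Oasl2 was at 80.9 CPM (176 UMIs in 75 cells) against 40.7 CPM (78 UMIs in 47 cells), a ratio of 1.99 (1.51 to 2.63). It kept its call in all 13 alternatives. Ifit1 was at 19.3 CPM (42 UMIs) against 7.30 CPM (14 UMIs), but 1 cell held 42.9% of the implanted and 1 cell 50.0% of the non-implanted counts, and without the high-scoring cells the log2 difference turned to -0.15. Usp18, the protease that removes Isg15 from proteins and damps the interferon receptor, was at 21.6 CPM (47 UMIs) against 12.5 CPM (24 UMIs), a ratio of 1.72 (1.03 to 2.95), and lost its call in 6 of 13 alternatives.

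Just under the line in monocyte-like cells were Oas1a (34.0 against 21.4 CPM), Ifit3 (26.2 against 16.7 CPM), Irgm1 (32.2 against 20.9 CPM) and Irf7 (115 against 79.3 CPM, ratio 1.45, 1.18 to 1.79). Isg15 (72.6 and 63.6 CPM), Rsad2 (25.7 and 25.6 CPM), Mx1 (34.0 and 31.8 CPM), Bst2 (137 and 129 CPM) and Gbp3 (26.2 and 28.2 CPM) lay close together. By cluster, the core sum was 655 against 351 CPM in cluster 9, 398 against 409 CPM in cluster 10 and 57.3 against 88.2 CPM in cluster 16, led by Adgre4, Pparg and Ace. The higher implanted level thus sat in cluster 9, where Oasl2 was at 113 against 54.1 CPM and Usp18 at 23.7 against 4.27 CPM (24 and 3 UMIs).

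In macrophage-like cells 3 of 23 measured members were higher in the implanted library (13%, beside 9.01% of all genes) and 3 were lower (13%, beside 9.10%). The lower ones numbered 6 with 1 CPM added, 7 with the same weight for every cell, 5 with each library clustered alone and 5 without high-scoring cells, and the higher ones 1 with 20 CPM added and 1 with the same weight for every cell. Rsad2 was at 74.1 CPM (130 UMIs) against 22.4 CPM (30 UMIs), a ratio of 3.31 (2.21 to 5.10). One implanted cell held 30.8% of the counts; the log2 difference was 1.53, and lay between 0.71 and 1.68 in the 14 alternatives. Within cluster 8 alone Rsad2 was at 82.6 against 20.8 CPM, with 1 cell holding 54.1% of the implanted counts. Irf7 was at 87.2 against 54.5 CPM, but within cluster 8 at 55.8 against 52.8 CPM, and without cluster 19 its log2 difference was -0.06. Ifit1 rested on 25 and 7 UMIs (14.3 against 5.22 CPM).

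The lower members of macrophage-like cells were Gbp7, Ly6e and Xaf1. Gbp7, a guanylate-binding protein, was at 21.7 CPM (38 UMIs) against 47.8 CPM (64 UMIs), a ratio of 0.454 (0.295 to 0.688), and kept its call in all 14 alternatives. Without cluster 19 the log2 difference of Gbp7 was -0.59, beside -0.98 with it, and lay just past the limit. Ly6e was at 603 CPM (1057 UMIs) against 924 CPM (1238 UMIs), a ratio of 0.652 (0.60 to 0.709). Within cluster 8 Ly6e was at 607 against 906 CPM. With the same weight for every cell the log2 difference of Ly6e was -0.32 and did not pass, and without cluster 19 it was -0.54. Xaf1, which binds an inhibitor of cell death, was at 20.0 CPM (35 UMIs) against 32.8 CPM (44 UMIs) and lost its call in 6 of 14 alternatives.

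**Figure D5:**
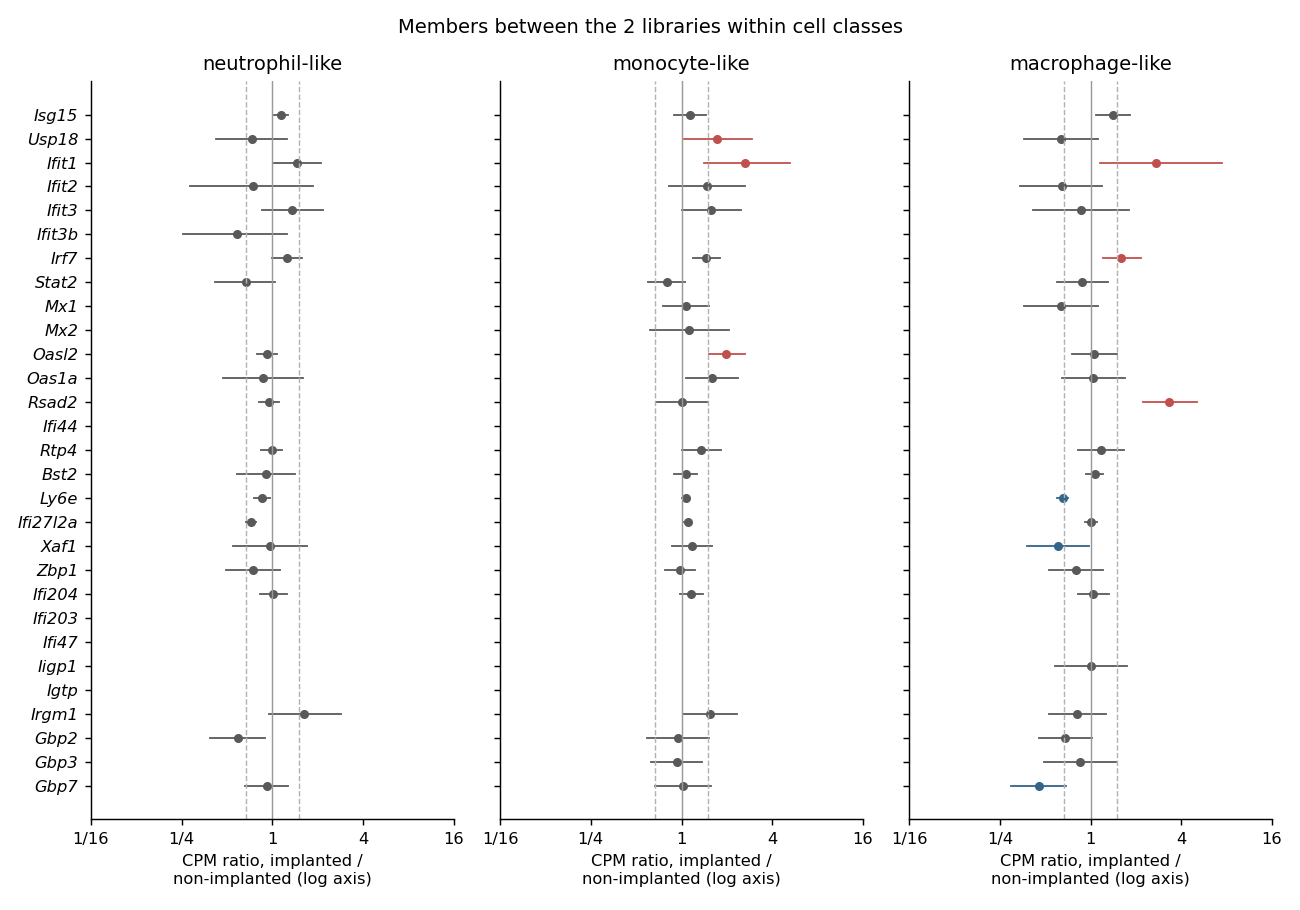
Ratio of implanted to non-implanted CPM (log axis) for members with at least 20 UMIs in neutrophil-like, monocyte-like and macrophage-like cells, with exact 95% counting intervals; dashed lines mark 1.5-fold and colours mark calls made after 5 CPM was added. Neutrophil-like cells have no coloured point, monocyte-like cells 3 higher ones and macrophage-like cells 3 higher and 3 lower ones.

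The wider pathway list put these values in context. Of the 142 genes listed beside the members, 133 are in the table. Among 16 ligands, 9 had no UMI over all cells, beside 23474 of all 48709 gene rows. Ifnb1 had 0 and 1 UMIs, Ifng 5 and 6, and the cytokine Il15, counted here with the ligands, 2391 and 2436. All 9 receptor and kinase genes were seen. Ifnar1 was at 45.1 and 47.7 CPM in neutrophil-like, 82.7 and 73.6 CPM in monocyte-like and 107 and 118 CPM in macrophage-like cells, and at 10.0 and 11.9 CPM in precursor-like cells. Ifnar2 was at 56.7 and 47.3 CPM in precursor-like and 103 and 95.5 CPM in neutrophil-like cells. Precursor-like cells, low in the core genes, thus held both receptor chains' transcripts, Ifnar1 at the lowest level of the 4 classes.

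Between libraries, 1 of 82 pathway genes measured in neutrophil-like cells was higher (1.22%, beside 1.79% of all genes) and none lower (0.548% of all genes). In monocyte-like cells 4 of 95 were higher (4.21%, beside 2.66% of all genes): the chemokine gene Cxcl10 (90.5 against 37.0 CPM), the RNA-sensor relative Dhx58 (32.6 against 19.8 CPM), Gbp5 and Phf11d. 1 gene (1.05%, beside 2.38%), Slfn4, was lower, at 28.9 against 66.2 CPM. In macrophage-like cells 5 of 97 were higher (5.15%, below the 9.01% of all genes): Cxcl10 (127 against 56.7 CPM), Cd274, which encodes the checkpoint ligand PD-L1 (128 against 58.9 CPM), the kinase gene Jak2 (140.2 against 77.6 CPM), Dhx58 (27.9 against 14.2 CPM) and Oasl1, with 47.2% of implanted counts in 1 cell. There 15 were lower (15.5%, beside 9.10% of all genes), among them Batf2, Mb21d1, Ifitm1, Oas3, Sp110, Slfn4, Mndal, Phf11a, Phf11b, Gbp5, Cxcl9, Epsti1, Samd9l and Rnf213.

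By ratio, a wide gap was that of Cxcl9, a chemokine gene known for its response to interferon gamma, with 7 UMIs (3.99 CPM) in implanted and 123 UMIs (91.8 CPM) in non-implanted macrophage-like cells. One non-implanted cell held 50.4% of those counts. Epsti1 was at 220.1 against 359 CPM. Cluster 19, with 64 implanted and 3 non-implanted cells, is part of the class in these values, and its part in the pathway genes' differences was not tested.

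Some rows of the set cannot be read on their own. Ifit3 shares 12.9% of the 60-base words of its last 500 bases with Ifit3b, and Oas1a 51.2% with Oas1g, so reads from these copies may be split or dropped by counting; the Ifit3b row held 23 and 30 UMIs over all cells. Ifi47, Igtp and Ifi203, at 0 UMIs in all cells of both libraries (a level of 0.163 and 0.147 CPM would give 3 UMIs), overlap other gene models over 4.49%, 8.01% and 0.552% of their exonic bases; whether that set the 0 was not tested. The rows of those neighbours did hold counts: Olfr56 59 and 79 UMIs, Irgm2 116 and 144 UMIs and Mndal 816 and 747 UMIs. A row at 0 in every cell of every class was therefore taken as a row without counts, and nothing is said of those genes' transcripts.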

How the data were processed

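Droplet 3' RNA libraries of CD11b-selected cochlear cells, 1 implanted and 1 non-implanted, were analysed from the filtered matrices of UMI counts that the authors deposited. The counts were made with Cell Ranger 3.0.1, per the file headers, on mm10, and the submitters' processing notes also name Seurat and GRCm38; the annotation release is not given in the sources used here. No normalization had been applied. All 29 gene IDs matched GENCODE M21, 21 of them with the same version.

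Barcodes with fewer than 200 genes or more than 10% mitochondrial UMIs were dropped (82 implanted, 59 non-implanted). Simulated-doublet scores (Scrublet in scanpy 1.11.5) were used to remove 84 and 102 cells. That was 0.8% of barcodes for every 1000 barcodes in each library's deposited matrix. The libraries were clustered together without the 29 genes and the pathway list (2000 variable genes, 30 principal components, 15 neighbours, Leiden resolution 1, leidenalg 0.10.2), and clusters were named from 18 marker lists with a score settled after the clusters were seen. UMIs were summed by class and library with Python 3.11.15, numpy 2.4.6, pandas 2.3.3 and scipy 1.17.1 (figures with matplotlib 3.10.9).

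A gene was called at 1.5-fold between libraries, or 2-fold in both libraries between classes, after 5 CPM was added, with a minimum of 20 UMIs. The 2-fold rule between classes was added after the data were seen. Intervals are exact 95% Poisson, conditional binomial or Clopper-Pearson intervals and cover counting error only. Shares of cells and the score were taken after thinning to 1000 UMIs. The ratio step was tested on simulated counts with counting error only, for changes larger than 1.5-fold in genes above a set level. That setting does not cover 1.5-fold calls, low levels or counts held by few cells. Members were all named, and beside them the 15 genes outside the score with the largest smaller difference between high-scoring and other neutrophil-like cells, and the pathway genes called. The members and lists were chosen with earlier results of these data known. Alternatives were other added values (1 and 20 CPM), no UMI minimum, other cell and doublet filters, another resolution, separate clustering, clustering with the interferon genes, equal weight for every cell, the highest cell left out, other score limits and depths. The 3 alternatives chosen after seeing the data left out cluster 19, left out high-scoring cells, or took precursor-like cells as the reference for free RNA.

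Some of the pathway genes called are not reported here by name.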

Additional observations from a re-analysis of the deposited data

How the results depend on the processing

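Each condition is 1 library, so depth and animal-to-animal spread limit every comparison between them, and counts under about 20 UMIs carry wide intervals. No paired analysis was possible because each condition has 1 library and the labels carry no replicate numbers. Among values that answer a comparison, recomputed under the alternatives, 141 stayed within their limits and 43 moved; of the values for single genes, 1431 stayed, 84 moved and 2 reversed. The cause was not tested except where the alternative's construction shows it. With 1 CPM added, members higher in the implanted library numbered 3 over all cells, 1 in neutrophil-like and 6 in monocyte-like cells, and lower ones 1 in precursor-like, 2 in neutrophil-like and 6 in macrophage-like cells. With 20 CPM added, 0 were higher over all cells, 1 in monocyte-like and 1 in macrophage-like cells, and 75 genes accompanied the high score. With the same weight for every cell, 2 were higher over all cells, 1 in neutrophil-like and 1 in macrophage-like cells, and 1 lower in precursor-like and 7 in macrophage-like cells; 2 members were lower in monocyte-like than neutrophil-like cells; the core sum was 34.8 CPM in implanted precursor-like and 433 CPM in implanted neutrophil-like cells, and 41.0, 389 and 364 CPM in non-implanted precursor-like, neutrophil-like and macrophage-like cells. With the highest cell left out, 6 were higher in monocyte-like cells. With each library clustered alone, 7 were higher in monocyte-like and 5 lower in macrophage-like cells. With the interferon genes kept in the clustering, the core sum was 274 and 252 CPM in neutrophil-like and 247 CPM in non-implanted macrophage-like cells; 0 members were lower in monocyte-like than neutrophil-like, 8 higher in macrophage-like than neutrophil-like and 2 higher in monocyte-like than macrophage-like cells. Under the alternatives chosen after seeing the data, leaving out high-scoring cells gave 0 higher over all cells, 1 higher and 1 lower in monocyte-like and 5 lower in macrophage-like cells, and turned Ifit1 in monocyte-like cells to a log2 difference of -0.15; leaving out cluster 19 turned Irf7 in macrophage-like cells to -0.063. High-scoring shares in the implanted and non-implanted library were 3.51% and 3.20% at 2 core genes, 0.608% and 0.419% at 4 (with 256 accompanying genes), 2.67% and 2.10% at 2000 UMIs, and 6.82% and 5.10% without thinning.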

Other observations

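Osteoclast-like cells, from 11 implanted and 31 non-implanted cells, had a core sum of 15.3 and 103 CPM, which rests on few cells. Isg15 had 2 and 17 UMIs there, Oasl2 1 and 16, Gbp3 2 and 12 and Rsad2 0 and 6. Bst2 was nearer, at 115 and 141 CPM (30 and 86 UMIs), with a UMI in all 11 implanted cells. The unnamed mixed cluster, whose leading genes Ptgds, Pf4 and Col1a1 belong to several cell types, had 62 Ifit1 UMIs in its 42 implanted cells and 4 in its 32 non-implanted cells. Iigp1 had 29 and 7 UMIs there.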
